A study of Oryctolagus cuniculus with 16 samples.

Results

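The ATP-binding cassette (ABC) transporter genes ABCB1, ABCB11 and ABCC3 were followed in rabbit vein grafts by all of their probes. The genes were chosen by name, and their probes were found by matching the transcript accession printed for each probe to a rabbit gene symbol. This gave 6 probes of 43603 on the array, of which 1 belonged to ABCB1, 3 to ABCB11 and 2 to ABCC3. A gene name could be given to 6184 probes, so that the members were 3 of 2127 named genes. The samples were vein tissue of male rabbits. Grafts removed 1 day after surgery (day 1) were on 6 arrays, grafts removed 7 days after surgery (day 7) were on 6, and vein grafts of a sham surgery group were on 4. Age, strain and any drug treatment are not given in the sources used here, and the labels do not say which arrays came from separate animals.

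ABC transporters are membrane proteins that bind and hydrolyse ATP to move a substrate across a membrane. ABCB1 (P-glycoprotein) pumps many drugs and other lipophilic compounds out of cells and is well known from the endothelium of the blood-brain barrier, intestine, kidney and liver. ABCB11 (bile salt export pump) secretes bile salts across the canalicular membrane of hepatocytes, and ABCC3 (multidrug resistance-associated protein 3) exports organic anions, glucuronides and bile salts across basolateral membranes. All 3 belong to the plasma membrane, and none is a peroxisomal transporter.

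Each array carried 45220 spots of one-colour signal. The arrays differed in overall brightness, and the 75th percentile of the unnormalized signal was 1594 intensity units in the median sham array, 942 in the median day 1 array and 2652 in the median day 7 array. The scanner software's own test of each spot against its local background called 32794 to 36269 probes of an array well above background. Arrays of one group were averaged where they differed by less than spots of one probe on a single array. This left 2 samples on day 1 and 2 on day 7, each the mean of 3 arrays, beside 4 sham samples. The p-values therefore measure only the spread between these samples, which may be technical. Sham arrays O1 and O2 resembled each other more than they resembled O3 and O4, with an SD of the log2 difference of 0.22 to 0.26 within these pairs and of 0.73 to 0.74 across them. No scan held both sham and graft arrays, so that in comparisons with sham the effects of scan and of surgery cannot be told apart. Day 1 and day 7 arrays shared 3 scans, and each of these held 1 array of every graft sample. Values within these scans are therefore repeat readings of the same samples.

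Of the 6 probes, 4 were well above background on all 16 arrays and were tested. They were the ABCB1 probe, both ABCC3 probes and 1 ABCB11 probe (A_04_P083812). The other ABCB11 probes were near background. A_04_P003366 was well above background on 0 arrays, and A_04_P003367 was so on 1 array, sham array O1. Neither passed the filter on dim probes, and neither has a fold change here. None of the 6 probes was saturated or marked as an outlying spot on any array.

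**Figure D1:**
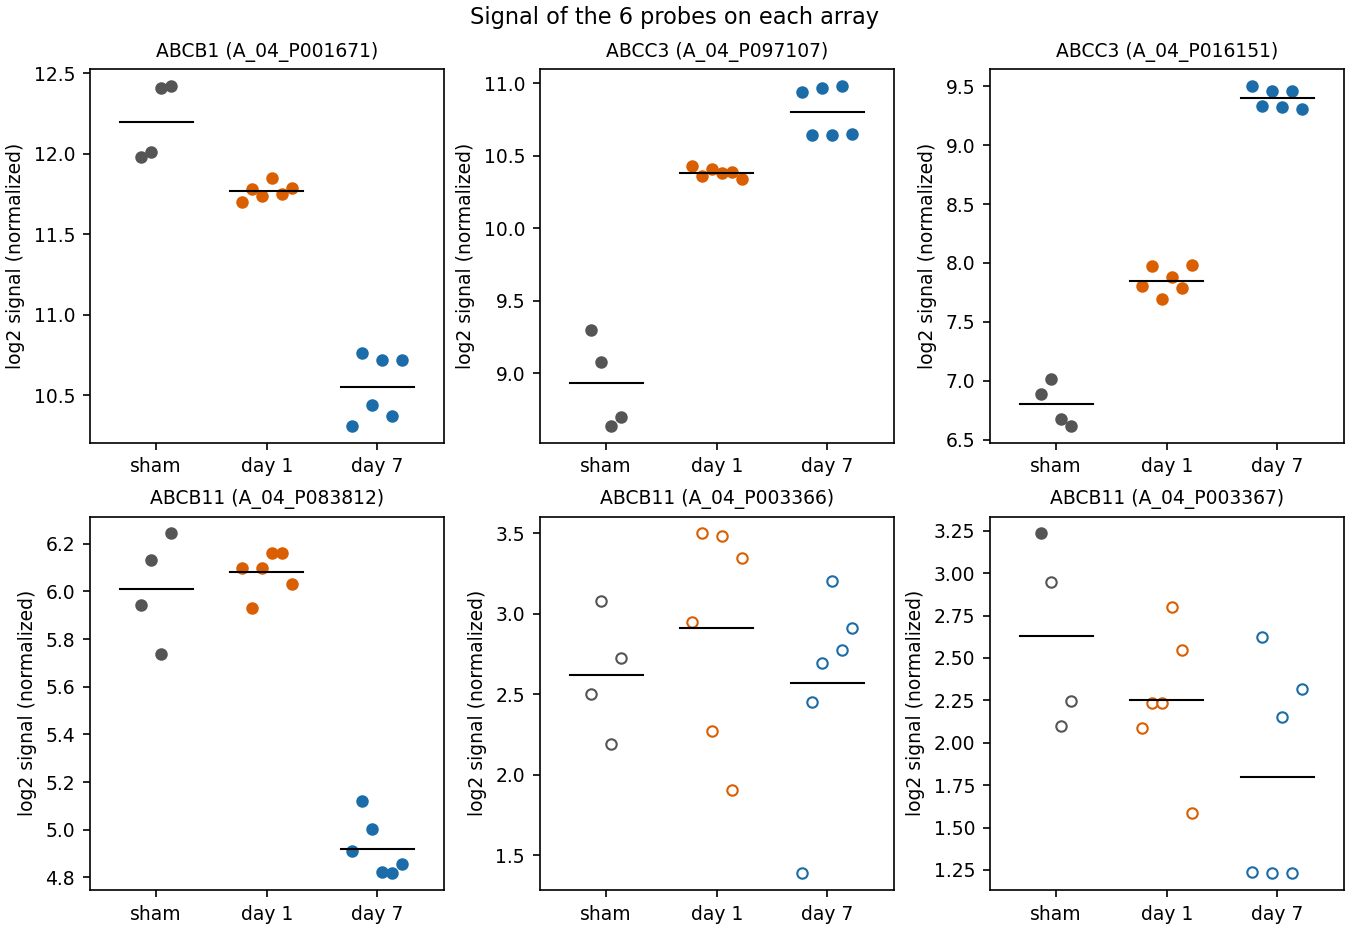
Quantile-normalized log2 signal of each probe (vertical axis, own scale in each panel) in the sham, day 1 and day 7 groups. Each point is 1 array, filled where the probe was well above background and open where it was not, and the line is the mean over the samples. The ABCB1 points fall from sham to day 7, both ABCC3 probes rise, and of the other ABCB11 probes A_04_P003366 has only open points and A_04_P003367 has 1 filled point, on O1.

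Day 7 grafts differed from sham by lower ABCB1, lower ABCB11 on its measurable probe, and higher ABCC3 on both probes. ABCB1 was 3.14-fold lower, ABCB11 was 2.13-fold lower, and ABCC3 was 3.67-fold and 6.07-fold higher on its 2 probes. On day 1, ABCC3 was the only one of the 3 genes past both thresholds, with a 2.75-fold and a 2.08-fold rise. A differentially expressed probe had to pass a limma adjusted p of 0.05 and a log2 fold change of 1 in either direction. By this rule 4 member probes differed between day 7 and sham, where 32.9% of all 35715 probes tested did (17.5% higher and 15.4% lower). On day 1 against sham, 2 member probes differed, against 49.8% of 35758 probes (25.2% higher and 24.6% lower). For day 7 against day 1 there were 3, against 40.0% of 35717 probes (21.1% higher and 18.9% lower). These shares are the background for the member counts, and no test was made of the counts themselves. In bulk tissue, fewer cells of a type and less RNA per cell cannot be told apart.

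**Figure D2:**
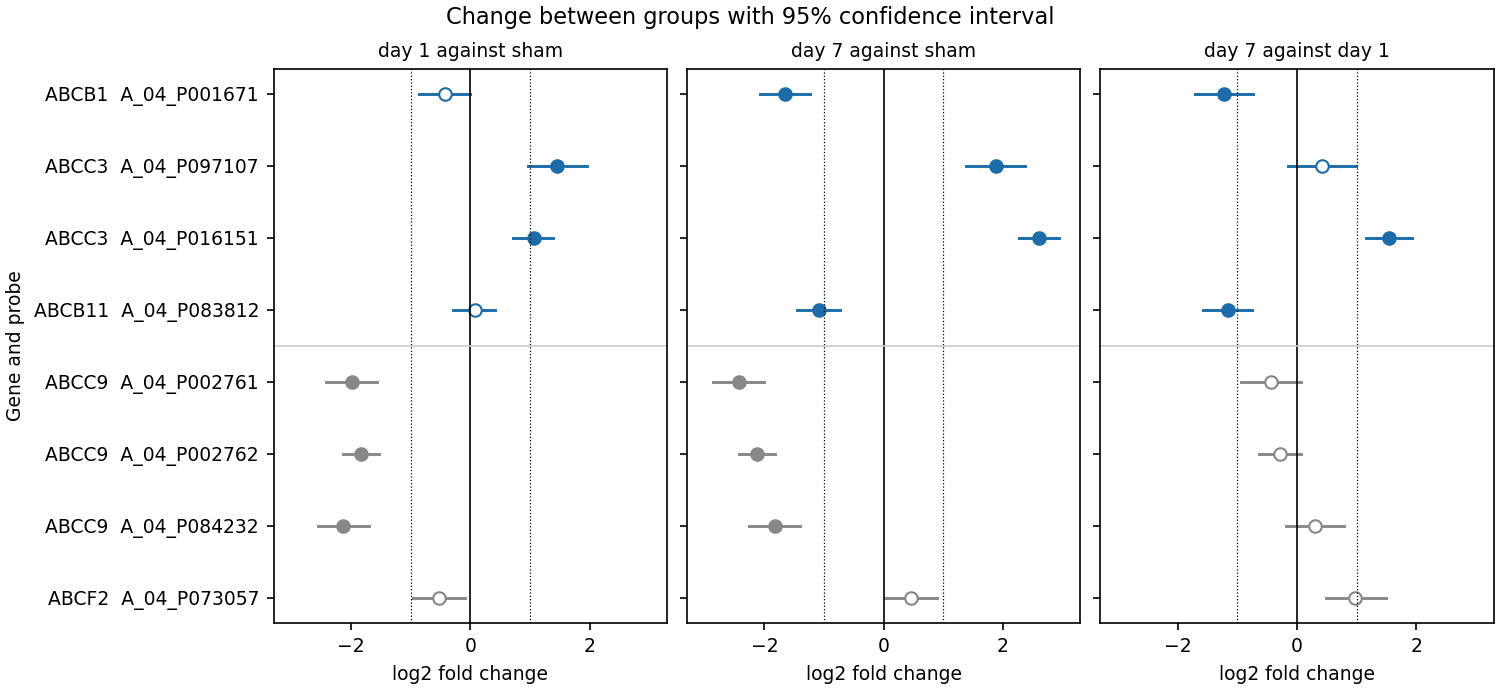
Log2 fold change (horizontal axis) with its 95% confidence interval for the 4 measurable probes of ABCB1, ABCC3 and ABCB11 (blue) and for ABCC9 and ABCF2 (grey), in 3 comparisons. Filled points passed both thresholds and dotted lines mark a log2 fold change of 1 in either direction. ABCC3 lies to the right in both comparisons with sham, while ABCB1 and ABCB11 lie past the left threshold on day 7 only.

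ABCB1 was measured by a single probe, A_04_P001671 (transcript NM_001082159). Its log2 signal was 11.98, 12.01, 12.41 and 12.42 in the sham samples, 11.73 and 11.81 in the day 1 samples, and 10.37 and 10.73 in the day 7 samples. Every day 7 sample was below every day 1 sample, and every day 1 sample was below every sham sample, also when single arrays were compared. How many of all probes separate the groups without overlap was not counted, here or for the genes below.

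The group means of ABCB1 were 12.20 ± 0.24 in sham (SD, n = 4), 11.77 ± 0.05 on day 1 (SD, n = 2) and 10.55 ± 0.25 on day 7 (SD, n = 2). On day 7 ABCB1 had fallen by 1.65 on the log2 scale against sham (SE 0.18, 95% confidence interval -2.08 to -1.23, limma adjusted p = 0.000207). Of all probes tested, 9.4% had a larger fall in this comparison. The day 1 value against sham was -0.43 (95% confidence interval -0.86 to -0.01, limma adjusted p = 0.0607), which passed neither threshold. Between day 1 and day 7 ABCB1 fell by 1.22 (SE 0.21, limma adjusted p = 0.00185), a 2.32-fold difference.

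Within the 3 scans that held both groups, the difference of ABCB1 between day 7 and day 1 was -1.21, -1.21 and -1.23 on the log2 scale. These 3 values are repeat readings of the same samples and not separate replications. The difference is a fall relative to the rest of the array. As deposited, the ABCB1 signal was 2020 to 2215 intensity units on day 1 and 2230 to 2703 on day 7, on arrays whose overall signal was higher on day 7. In sham it was 3163 to 5391 units. The sham level itself depended on the array pair, and the mean of O3 and O4 was 0.42 above that of O1 and O2. The day 1 value of -0.43 became -0.23 against O1 and O2 alone (limma adjusted p = 0.16) and -0.64 against O3 and O4 alone (limma adjusted p = 0.00498). The day 7 value was -1.44 and -1.86 against the same pairs and passed both thresholds each time.

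ABCB4, a close paralog that transports phospholipid into bile, is the next protein-coding gene after ABCB1 in the rabbit assembly mOryCun1.1. ABCB4 had no named probe, and whether its transcript also binds the ABCB1 probe was not tested. Endothelial markers were also lower. Of 10 endothelial genes listed, 3 were tested, of which 2 were lower on day 1 and all 3 on day 7 than in sham. Of all probes tested, 24.6% were lower on day 1 and 15.4% on day 7. Nitric oxide synthase NOS3 had log2 fold changes of -1.31 on day 1 and -2.95 on day 7, and thrombomodulin (THBD) of -0.14 and -1.26. The receptor KDR was well above background on the 4 sham arrays and on no graft array, and was at least 2.31-fold lower on day 1 and at least 1.99-fold lower on day 7. KDR entered the fit through the sham group, in which it was high, so its calls as lower follow in part from the filter. On day 1 NOS3 and KDR were called lower, while THBD and ABCB1 (-0.43, limma adjusted p = 0.0607) were not. The summed normalized signal of the 3 genes was 8823 to 9490 in sham, 7924 to 8050 on day 1 and 3553 to 3749 on day 7. Such a sum is led by the brightest gene, and KDR (mean log2 signal 4.66 in sham) adds little. The day 1 fall of the sum was nearer to that of THBD than to that of NOS3. The part of endothelial cell number in the ABCB1 values was not tested.

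ABCC3 was measured by 2 probes of one transcript (ENSOCUT00000002758), which was named through a gene identifier and not through a RefSeq accession. On probe A_04_P097107 the log2 signal was 9.30, 9.08, 8.63 and 8.70 in the sham samples, 10.41 and 10.36 on day 1, and 10.96 and 10.64 on day 7. All graft samples were above all sham samples, and both day 7 samples were above both day 1 samples. On probe A_04_P016151 the log2 signal was 6.88, 7.02, 6.67 and 6.62 in sham, 7.76 and 7.94 on day 1, and 9.47 and 9.32 on day 7. The order of the groups was the same on this probe, again with no overlap.

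On day 1 ABCC3 rose by 1.46 on the log2 scale on A_04_P097107 (SE 0.21, 95% confidence interval 0.96 to 1.95, limma adjusted p = 0.000532). The rise on A_04_P016151 was 1.06 (SE 0.14, 95% confidence interval 0.72 to 1.39, limma adjusted p = 0.000377), close to the threshold. On day 7 the rises over sham were 1.88 (SE 0.21, limma adjusted p = 0.000234) and 2.60 (SE 0.14, limma adjusted p = 7.88e-06). Larger rises were seen for 8.05% of all probes tested in the case of A_04_P097107 and for 4.52% in the case of A_04_P016151. The value on A_04_P016151 was the largest change of any member probe.

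Both ABCC3 probes placed the gene above sham at both times but gave different calls between day 1 and day 7. On A_04_P016151 the signal rose by 1.55 (95% confidence interval 1.16 to 1.93, limma adjusted p = 0.000186), a 2.92-fold difference. On A_04_P097107 the difference was 0.42 (95% confidence interval -0.15 to 0.99, limma adjusted p = 0.171) and passed neither threshold. It was 0.26 without day 7 sample 1 and 0.58 without day 7 sample 2. The same samples were read in each of the 3 shared scans. There the values were 1.53, 1.60 and 1.50 on the former probe and 0.39, 0.41 and 0.45 on the latter. The change from day 1 to day 7 was thus 1.13 smaller on A_04_P097107 than on A_04_P016151. An exact permutation test of this probe difference over samples gave a two-sided p = 0.333, which is the smallest p that 2 against 2 samples allow. Against sham, A_04_P097107 changed by 0.40 more on day 1 and by 0.73 less on day 7 than A_04_P016151, each with an exact two-sided p = 0.0667, again the smallest possible with 2 against 4 samples.

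**Figure D3:**
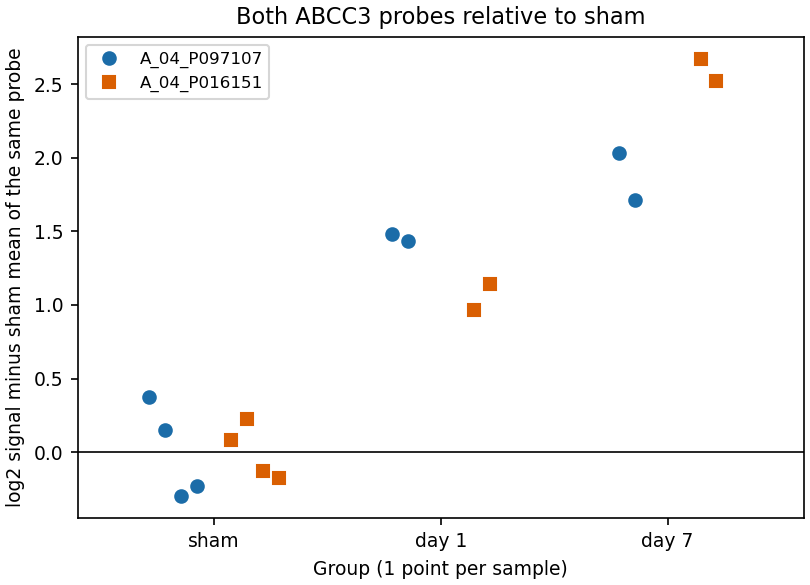
Log2 signal of the ABCC3 probes A_04_P097107 (blue circles) and A_04_P016151 (orange squares) in each sample, minus the sham mean of the same probe (vertical axis), by group. On day 1 the samples lie at 1.43 and 1.48 on the first probe and at 0.96 and 1.14 on the second, and on day 7 the second probe is the higher one at 2.52 and 2.67.

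The deposited ABCC3 signals, before normalization, had the same order as the normalized ones on A_04_P016151. They were 88.1 to 144 units in sham, 150 to 165 on day 1 and 956 to 1255 on day 7. On A_04_P097107 they were 413 to 823 units in sham, 707 to 894 on day 1 and 2425 to 3540 on day 7, and the sham and day 1 ranges overlapped on this scale. The sham level was lower in O3 and O4 than in O1 and O2, by 0.52 on A_04_P097107 and by 0.31 on A_04_P016151. Against O1 and O2 alone, the day 1 value on A_04_P016151 was 0.90 and no longer passed the fold threshold. The same call was lost without day 1 sample 2 (0.96), without sham sample 4 (1.00, just under the threshold) and with normexp background correction (0.59). The rise on A_04_P097107 passed both thresholds each time.

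Macrophage and neutrophil markers rose in the same grafts. The 2 macrophage genes tested of 10 listed, the lipopolysaccharide co-receptor CD14 and the scavenger receptor MSR1, had log2 fold changes of 5.56 and 6.17 on day 1 and of 4.67 and 6.65 on day 7 against sham. Their summed normalized signal was 1839 to 3902 in sham, 137422 to 140865 on day 1 and 104959 to 114384 on day 7. All 5 neutrophil genes tested of 6 were higher on day 1 than in sham (25.2% of all probes were), and 4 of them still were on day 7 (17.5%). Their summed signal was 9299 to 26080 in sham, 734802 to 756986 on day 1 and 124281 to 126997 on day 7. The part of these cells in the ABCC3 values was not tested.

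ABCB11 was represented by 3 probes of one transcript (NM_001082083), of which A_04_P083812 was measurable. Its log2 signal was 5.94, 6.13, 5.74 and 6.24 in the sham samples, 6.12 and 6.04 on day 1, and 4.91 and 4.93 on day 7. The day 1 samples lay within the sham range, and both day 7 samples lay below all others. Against sham, the day 1 value was 0.07 (95% confidence interval -0.29 to 0.42, limma adjusted p = 0.704). On day 7 the signal had fallen by 1.09 (SE 0.15, 95% confidence interval -1.45 to -0.74, limma adjusted p = 0.000648), and 15.1% of all probes had a larger fall. Against day 1 it had fallen by 1.16 (SE 0.17, 95% confidence interval -1.57 to -0.75, limma adjusted p = 0.000955). The shared scans all read the same samples. Within single shared scans, the signal fell by 1.00, fell by 1.22 and fell by 1.26 from day 1 to day 7.

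The measurable ABCB11 probe was dim. Its deposited signal was 46.6 to 72.5 units in sham, 49.3 to 60.3 on day 1 and 32.7 to 42.5 on day 7. The size of the fall differed between alternatives. With normexp background correction and an added offset of 50 units, which were not tried apart, the day 7 value was -0.35 against sham (limma adjusted p = 0.00196) and -0.35 against day 1 (limma adjusted p = 0.00369), and both missed the fold threshold. Scaling to the 75th percentile in place of quantile normalization moved the values the other way, to -1.39 against sham and -2.04 against day 1. That scaling moved the median of all probes to 0.47 for day 1 against sham and to -0.35 for day 7 against day 1, from 0.12 and -0.03. The day 1 value of ABCB11 against sham was 0.65 on that scale (limma adjusted p = 0.0149) and stayed under the fold threshold.

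On the 2 other ABCB11 probes nearly all values were near background. A_04_P003366 had log2 signals of 2.19 to 3.08 in sham, 1.91 to 3.50 on day 1 and 1.39 to 3.20 on day 7. A_04_P003367 had 2.10 to 3.23, 1.59 to 2.80 and 1.23 to 2.63 in the same groups. The 3 groups overlapped on both probes. The faintest probes called well above background had log2 signals of 2.54 to 3.31 on the sham arrays, 3.34 to 3.68 on day 1 and 3.47 to 3.91 on day 7. A change of ABCB11 was therefore seen on 1 of its 3 probes and could not be measured on the others. Of 8 hepatocyte genes listed, albumin (ALB) was the 1 tested, and was well above background on 10 arrays. Its normalized signal, before taking log2, was 15.8 to 39.4 in sham, 13.0 to 14.4 on day 1 and 10.4 to 12.8 on day 7. Its log2 fold change on day 7 against sham was -1.15 (limma adjusted p = 0.0362), past both thresholds. The graft values lay near the faintest signals called well above background, so that the size of this change is uncertain. ALB was highest in sham. If it passed the filter through that group, its call as lower follows in part from the filter. The part of any hepatocyte RNA in the ABCB11 values was not tested. Whether part of the A_04_P083812 signal came from another transcript was not tested.

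**Figure D4:**
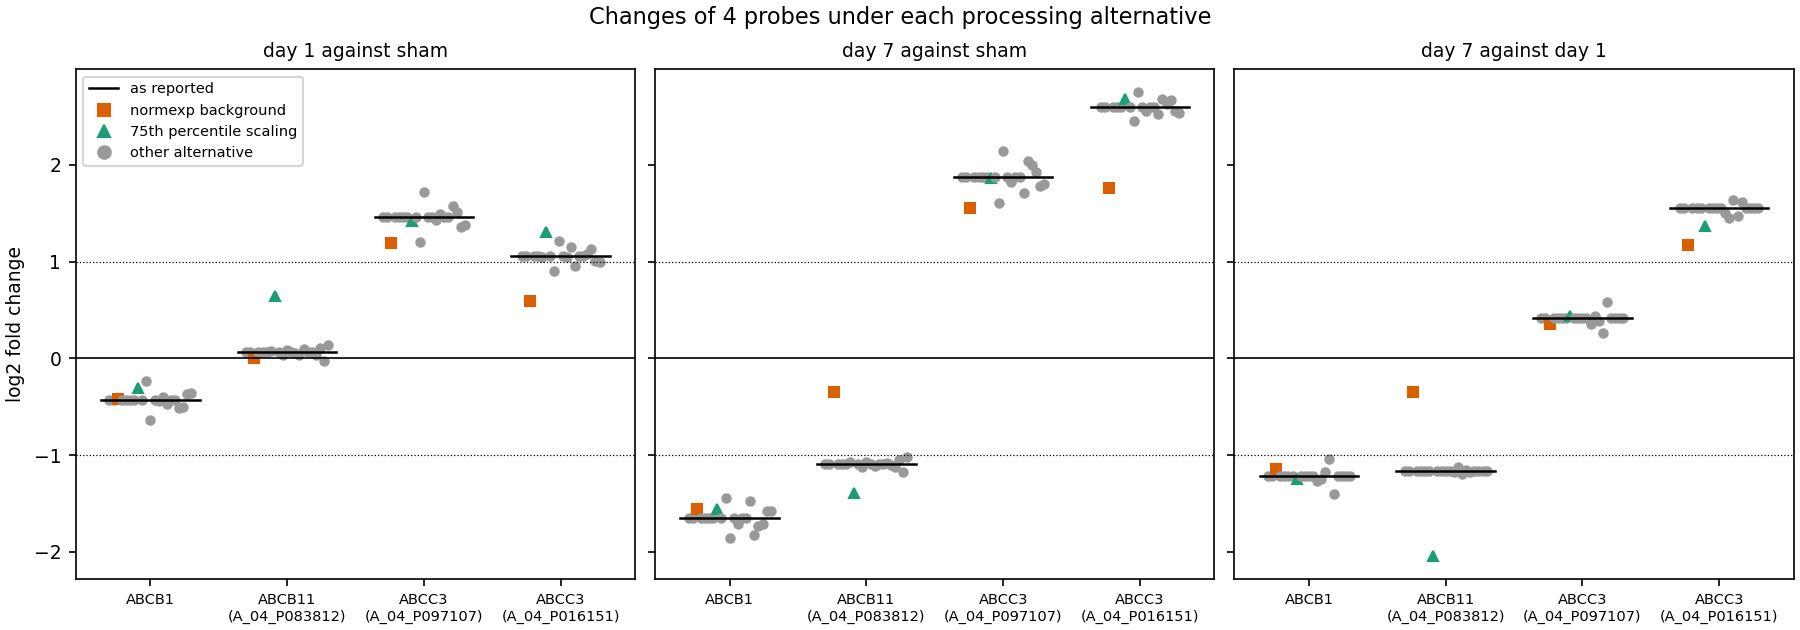
Log2 fold change (vertical axis) of the 4 measurable probes in 3 comparisons, as reported (black line) and under each processing alternative (points). Orange squares are normexp background correction, green triangles are scaling to the 75th percentile and grey circles are the other alternatives. The ABCB11 probe spreads from -2.04 to -0.35 for day 7 against day 1, while ABCB1 stays between -1.40 and -1.04.

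The rest of the ABC family was sparsely named on the array. Of 44 family genes listed, 7 had a named probe and 6 were tested, including the members. Each gene was taken by its brightest probe, and the shares of all probes called, given above, were 17.5% higher and 15.4% lower on day 7 relative to sham, 25.2% and 24.6% on day 1 relative to sham, and 21.1% and 18.9% between both times. On day 7 against sham 1 of the 6 was higher (ABCC3) and 3 were lower (ABCB1, ABCB11 and ABCC9), with a median log2 fold change of -0.77 beside 0.04 over all probes. On day 1 against sham 1 was higher (ABCC3) and 2 were lower (ABCC9 and ABCF3), with a median of -0.48 beside 0.12. On day 7 against day 1, 1 was higher (ABCF3) and 2 were lower (ABCB1 and ABCB11), with a median of -0.01 beside -0.03. None of the cholesterol and lipid exporters of the A and G subfamilies, the mitochondrial B members or the antigen peptide transporters had a named probe.

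ABCC9, the sulfonylurea receptor subunit of the potassium channel of vascular smooth muscle, fell on all 3 of its probes at both times. Its log2 fold changes against sham were -1.99, -1.84 and -2.13 on day 1 and -2.43, -2.12 and -1.83 on day 7, and no probe passed the thresholds between day 1 and day 7. On its brightest probe the log2 signal was 15.12 to 15.73 in sham, 13.34 and 13.35 on day 1, and 12.87 and 12.95 on day 7, with no overlap between groups. On its probe A_04_P084232 the day 1 samples (9.02 and 8.63) and the day 7 samples (8.98 and 9.27) overlapped. Of the 4 smooth muscle genes tested of 10, 2 were lower than in sham on day 1 and 3 on day 7, beside 24.6% and 15.4% of all probes. Log2 fold changes on day 1 and day 7 were -5.33 and -6.49 for the smooth muscle myosin MYH11, and -5.14 and -0.49 for ACTA2. They were -1.85 and -3.79 for DES, and -0.28 and -1.62 for CALD1. All 4 were well above background on all 16 arrays. Their summed normalized signal was 498911 to 781672 in sham, 181080 to 182516 on day 1 and 267412 to 299648 on day 7. The part of smooth muscle cell number in the ABCC9 values was not tested.

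The remaining family genes are named here after their values were seen. ABCF2 and ABCF3 are soluble family members that transport nothing. ABCF2 had log2 fold changes of -0.53 on day 1 and 0.45 on day 7 against sham, neither past both thresholds. ABCF3 was well above background on every sham and day 7 array and on 0 of 6 day 1 arrays. Set against the faintest signal well above background on each day 1 array, ABCF3 was at least 3.66-fold higher in sham than on day 1 and at least 2.67-fold higher on day 7 than on day 1. It entered the fit through the groups in which it was high, and the limma adjusted p of 3.47e-05 and 0.000244 belong to the measured day 1 values (mean log2 signal 1.62) and not to these bounds. The chloride channel CFTR was well above background on 0 arrays and was not tested.

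Bile acid and xenobiotic handling genes, which share substrates or regulators with the members, were described from a list of 31 genes, of which 14 had a named probe and 12 were tested. On day 1 against sham 6 were higher and 2 lower, on day 7 against sham 2 were higher and 2 lower, and on day 7 against day 1 1 was higher and 2 lower. The 4 of 12 called on day 7 against sham stand beside 32.9% of all probes, and the 8 of 12 on day 1 beside 49.8%. For day 7 against day 1 the share of all probes was 40.0% (21.1% higher and 18.9% lower). The medians of the list were 0.89, 0.16 and -0.30, beside 0.12, 0.04 and -0.03 over all probes. At day 7 the extremes were ezrin (EZR), a linker of membrane proteins to actin, and the organic anion uptake transporter SLCO2B1. EZR was not well above background on any sham array and was at least 24.5-fold higher on day 7. It entered the fit through the graft groups, in which it was high, and the limma adjusted p of 1.07e-05 belongs to the measured sham values (mean log2 signal 1.84) and not to this bound. SLCO2B1 fell by 2.35 against sham (limma adjusted p = 0.0398). The pregnane X receptor gene NR1I2, a regulator of ABCB1 in liver and intestine, had values of 0.25 on day 1 and 0.09 on day 7. The bile acid receptor gene NR1H4, a regulator of ABCB11 in liver, had values of -0.92 and 0.00 and was well above background on 9 arrays. Neither passed both thresholds.

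Among 1995 named genes outside the ABC family, the ones with the most similar profile over the 8 samples were found by the root mean square difference of the centred log2 signal. For ABCB1, whose own root mean square deviation from its mean was 0.70, they were DENND5B (0.13), GLRB (0.16) and SLC5A6 (0.17). For ABCB11 (own deviation 0.50) they were CEP68 (0.11), THBD (0.17) and SLC12A1 (0.17). For ABCC3 on A_04_P097107 (own deviation 0.87) they were AP2B1 (0.16), MTHFD1L (0.17) and RNF128 (0.19). The day 7 log2 fold changes against sham were -1.68, -1.59 and -1.49 for the genes nearest to ABCB1, -1.03, -1.26 and -1.07 for those nearest to ABCB11, and 1.75, 2.19 and 1.74 for those nearest to ABCC3. The samples behind these values share 3 groups, so that the likeness is a description.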

How the data were processed

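Cy3-labelled RNA of vein tissue was measured on one-colour rabbit arrays from Agilent. The authors deposited the signal intensity of each spot as written by Agilent Feature Extraction (version 11.0.1.1 in the file headers, 9.1 in the submitters' processing notes), already background-subtracted. The authors also deposited log2 values, which were normalized in GeneSpring by quantiles and cover 33670 probes, and which served as an alternative. From the intensities, outlying spots were set to missing (1.46% on at least 1 array), and log2 signals were quantile-normalized and averaged per probe. A probe entered the tests if one group had it well above background on all its arrays.

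Names came from RefSeq accessions (3368 probes) or from a gene identifier that the study gives for a transcript (2816 probes), through the rabbit assembly mOryCun1.1. The arrays' own annotation names the build oryCun2, so no coordinates are given. Arrays closer to each other than spots of one probe were averaged. A single limma 3.58.1 model (under R 4.3.3) of the 3 groups was fitted per probe to 35761 probes, with Benjamini-Hochberg adjustment over all of them and two-sided p-values. The procedure was tested on simulated data. Precision is limited by how many samples there are after averaging, with 2 on day 1, 2 on day 7 and 4 in sham. The plots used matplotlib 3.10.9 and pandas 2.3.3 under Python 3.11.15.

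The members and gene lists were chosen with earlier results of these data known. Genes named singly are the members, the ABC gene with the largest change per role, the 3 genes with the nearest profile to each member, and the highest and lowest gene of a marker or bile acid list. Other genes of short lists were named after their values were seen. Alternatives were all 16 arrays as samples, sham arrays averaged in pairs, the authors' log2 values, scaling to the 75th percentile, normexp with an offset of 50, no filter, a filter on all 16 arrays, 1 probe per gene, only the groups compared, the scan or replicate number as a block, and each sample left out. Either sham pair alone, and the dimmer ABCC3 probe under the alternatives other than 1 probe per gene, were added after seeing the data. A part of the family list is not reported here. T cell, fibroblast, adipocyte and erythroid markers were measured as well.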

Additional observations from a re-analysis of the deposited data

Results flagged for a closer look

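For 3 member probes, the change against sham on day 7 differed from that on day 1, tested by the contrast of day 7 with day 1 in the limma model, with 2 samples at each time. In this contrast 40.0% of all 35717 probes tested passed both thresholds, so that such a difference was common on the array. The difference was -1.22 on the log2 scale for ABCB1 (limma adjusted p = 0.00185) and -1.16 for the ABCB11 probe A_04_P083812 (limma adjusted p = 0.000955). It was 1.55 for the ABCC3 probe A_04_P016151 (limma adjusted p = 0.000186), while the other ABCC3 probe had 0.42 (limma adjusted p = 0.171). Both samples of day 7 lay on the same side of both day 1 samples in these comparisons. With 2 against 2 samples this adds little to the contrast, and how many of all probes separate in this way was not counted. No member value stood far from the rest of its group among the 4 sham samples. For ABCB1 and ABCC3 the sham values lay in pairs, O1 with O2 and O3 with O4. There the check could hardly have flagged a single value, and it says nothing on the distance between the pairs. The groups of 2 samples were not examined for outlying values.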

How the results depend on the processing

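Every member change past both thresholds kept its direction under every alternative that was run. Scaling to the 75th percentile gave 12508 probes higher and 7037 lower on day 1 against sham (9016 and 8799 as reported), and 5940 higher and 11502 lower for day 7 against day 1 (7539 and 6742). With normexp correction, the probes past both thresholds numbered 10458 for day 1 and 6918 for day 7, each against sham, and 7324 between both times (17815, 11758 and 14281 as reported). Member probes on day 1 against sham then numbered 1, ABC family genes 1 between both times (3 as reported), and ABCB11 had -0.35 on day 7 against both sham and day 1. With 1 probe per gene, fewer features were tested, and 9827, 6032 and 8021 passed, with 1 member on day 1 against sham. Sham arrays O1 and O2 alone also gave 1 member on day 1 against sham.

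Leaving out each sample in turn gave 1 to 2 member probes on day 1 against sham, 3 to 4 ABC family genes for day 7 against day 1 (3 as reported), and -0.03 to 0.14 for ABCB11 on day 1 against sham. The value of -0.03, without sham sample 3, was the only one to change sign, and it was not called. The counts over all probes were 16922 to 17997, 10745 to 11846 and 12841 to 14450. Where this left a group with 1 sample, that sample was assumed to vary like the others.

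Arrays with the same replicate number did not deviate together (correlations of -0.01 to 0.05, own number best for 2 of 6 day 7 and day 1 pairs). Graft arrays that were averaged in the main fit count as separate here and in the block, so they are not independent. With the replicate number as a block over all 16 arrays, day 7 against sham was -1.65 for ABCB1, -1.07 for ABCB11, and 1.88 and 2.60 for ABCC3, and the block changed no call of a member. The dimness of the ABCB11 probes, the number of samples and the lack of sham arrays on the graft scans limit these results.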

Other observations

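Other cell type markers were measured beside the members. Of 4 T cell genes tested, 2 were higher on day 7 than in sham (CD3E by 1.81 and CD5 by 1.39 on the log2 scale), beside 17.5% of all probes. CD4 (-0.12) and CD28 (0.03) were not called. On day 1 against sham CD4 (2.63) and CD5 (2.90) were higher, beside 25.2% of all probes, while CD3E (0.52) and CD28 (0.32) were not called. The summed normalized signal of the 4 was 199 to 231 in sham, 1236 to 1246 on day 1 and 491 to 498 on day 7. All 3 fibroblast genes tested were lower on day 1, as were 24.6% of all probes. Decorin (DCN), at -1.89, was the 1 of them still lower on day 7. The summed fibroblast signal was 1008853 to 1063390 in sham, 139192 to 139415 on day 1 and 809655 to 832704 on day 7. Of 3 adipocyte genes, adiponectin (ADIPOQ) was lower at both times, and was at least 60-fold lower on day 1, when it was not well above background. The shares of all probes that were lower were 24.6% on day 1 and 15.4% on day 7. On day 1 and day 7 against sham, LEP had values of 0.44 and -0.52, and LPL of -2.40 and -4.48 (SE 2.24). Neither gene passed both thresholds. The summed adipocyte signal ranged from 1483 to 125091 among the sham samples alone. The erythroid genes HBA and HBB2 had values of -0.46 and -0.09 on day 7 against sham, neither past both thresholds in the limma model.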
